A study of Mus musculus with 16 samples.

Results

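Transcript levels of 107 genes of pre-mRNA splicing and RNA binding were compared between kidney and liver, out of 9669 genes with a name on the arrays. The genes were chosen by symbol alone, from those starting with Sf3, Snrp, Lsm, Prpf, U2af, Srsf, Hnrn, Ddx or Rbm, without Rbm42. They were covered by 139 of the 11723 probes that carry 1 gene symbol. The prefixes take in 7 SF3, 10 Snrp, 11 LSm, 10 Prpf, 9 U2af and Srsf, 16 hnRNP, 25 Ddx and 19 Rbm genes. A symbol does not make a splicing factor, since Ddx helicases and Rbm proteins also act in translation, ribosome assembly, RNA export and decay.

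The RNA came from 3 male wildtype C3HeB/FeJ mice, an inbred strain, kept free of specified pathogens and aged 105 ± 5 days. On 7 arrays with 2 colours, the left kidney of a single mouse was hybridised with pooled RNA of 5 livers (mice 1, 2 and 3 with 3, 3 and 1 arrays). On 9 arrays, the dorsal liver lobe of a single mouse was hybridised with pooled RNA of 5 kidneys (each mouse with 3 arrays). Repeat arrays of a mouse and organ were averaged, which left 6 averages, n = 3 mice per organ. The labels do not describe the animals of the pools, and the pools give no spread of their own.

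Introns are removed from a pre-mRNA by the spliceosome, which is assembled anew on each intron from small nuclear ribonucleoproteins (snRNPs) named U1, U2, U4, U5 and U6. The Snrp genes encode Sm proteins, which form the core of most snRNPs, and proteins particular to U1 or U2 (Snrpa, Snrpa1, Snrpb2 and Snrpc). Some, but not all, LSm proteins form the core of U6. SF3 proteins belong to U2, and many Prpf proteins belong to the joined U4, U5 and U6 particle. SR proteins (Srsf genes), hnRNPs and many Rbm proteins bind the pre-mRNA and influence which exons are kept, while Ddx proteins are RNA helicases of the DEAD-box family. Most of this machinery is used by every nucleated cell, including the hepatocytes of the liver and the tubule cells of the kidney.

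All signed values are log2 ratios of kidney over liver, so positive values mean more transcript in kidney. The labels do not state the numerator. The deposited albumin (Alb) value averaged 8.44 on kidney arrays and -7.57 on liver arrays, and that of the kidney transcript Kap -5.77 and 6.08, so values were read as pool over single mouse. This opposes the order in the titles, and read in title order every kidney and liver below would be exchanged. In this reading, 12 of 13 tested kidney markers were called higher in kidney and 13 of 15 tested hepatocyte markers higher in liver, but these lists also set the direction. Of 5 tested blood and immune markers, 1 was called, higher in liver, and their part in the results was not tested. In bulk RNA, fewer cells of a type and less RNA per cell cannot be told apart.

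The 6 arrays of mouse 2 stood apart. Their median lay between -1.49 and -1.19 as kidney over liver, while those of mice 1 and 3 lay within 0.0027 of 0. The offset moved with signal, which was judged by how many of a probe's values recur exactly on an array, as small whole-number intensities do. Bright probes had at most 10% recurring values and dim probes over 50%. The measure uses the ratios themselves, and an unusual ratio recurs rarely whatever its intensity, so genes with a large organ difference can count as bright. For the splicing genes, the 22 bright probes had a median of -0.04 in mouse 2 and 0.42 in mice 1 and 3, while the 41 dim probes had -1.49 and -0.03. Over all genes the bright medians were -0.09 and 0.21, and the dim medians -1.56 and -0.04. Results are therefore given as deposited, with mouse 2 aligned to mice 1 and 3 within classes of signal, and without mouse 2. Probes with values on fewer than 8 of the 10 arrays of mice 1 and 3 had no signal measure. They were aligned together as 1 class, not matched by signal. This class held 24 probes of the splicing genes (17.3%), among them those of Snrpe, Snrpb2, Snrpc, Rbm4 and Rbm22.

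**Figure D1:**
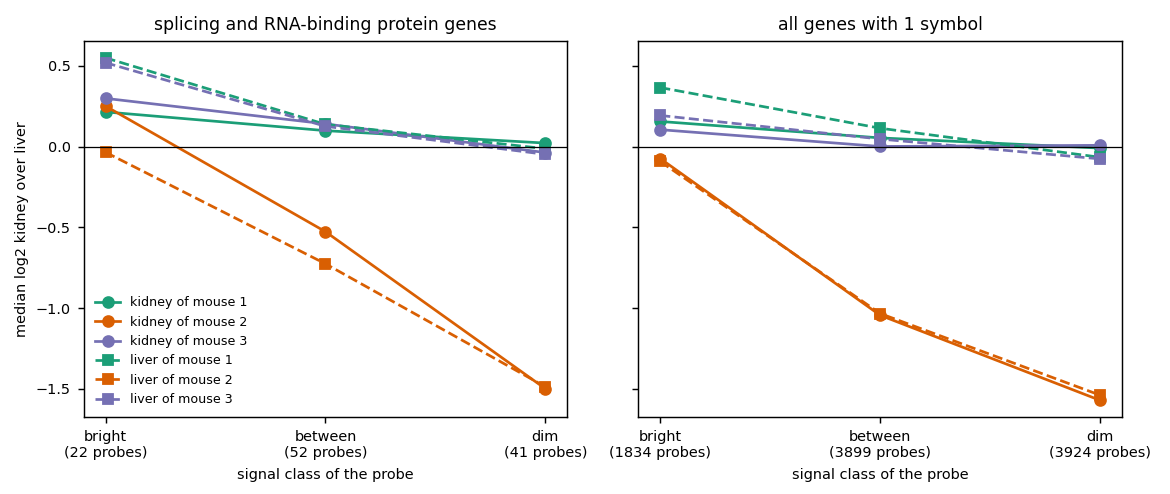
Median log2 kidney over liver (y axis) of bright, intermediate and dim probes (x axis) in each of the 6 averages, for the splicing genes (left) and all genes with 1 symbol (right). Mouse 2 lies farther below the other mice the dimmer the probes, with a median of -1.49 for dim probes of the splicing genes, while mice 1 and 3 lie near or above 0.

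Few of these genes differed strongly between the organs. Estimates of the 103 tested genes ran between -1.54 and 1.21, with a median of -0.33, while those of all 9047 tested genes ran between -8.01 and 6.19 with a median of -0.48. No splicing gene reached a size of 2, that is 4-fold, against 353 of all genes (3.9%), and 11 reached a size of 1 (10.7%, against 15.2% of all genes). In all, 15 passed an adjusted p of 0.05, here termed called (14.6%, limma with Benjamini-Hochberg over all genes), with 14.4% of all genes passing. Of these, 7 were higher in kidney (6.8%, background 5.56%) and 8 higher in liver (7.77%, background 8.88%). These shares are near the background. Not tested were Ddx23 and Srsf4 (values in 3 averages each), Rbm10 (1 average) and Rbm12 (no value).

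The counts depended on mouse 2 and on the pairing of organs by mouse. After alignment of mouse 2, 28 genes passed as higher in kidney and 14 as higher in liver (background 20.5% and 17.3%, 37.8% in both). With each array centred on its median these were 28 and 9 (background 19.5% and 12.4%, 32.0% in both), and without mouse 2 they were 23 and 13 of 82 tested (background 20.3% and 15.7%, 36.0% in both). The kidney and liver of a mouse share the animal, and with mice as a replicate block on sample over pool 0 genes passed as higher in kidney and 1 as higher in liver (limma, background 2.83% and 4.78%, 7.6% in both). At an unadjusted p under 0.05 the block gave 4 and 10, with no share of all genes taken at that level. The SE under this block was 0.45 for every tested splicing gene with values in both organs of all 3 mice. For these genes its p-values thus follow the size of the estimate alone, not how closely the mice of a gene agreed. With mouse 2 aligned and the same block, an alternative chosen after seeing the data, 20 and 8 passed (background 14.5% and 10.3%, 24.8% in both). Among bright probes alone, 13 of 21 tested genes passed, 10 higher in kidney and 3 in liver (background 72.3%, 40.8% and 31.5%). Alignment sets the medians of mouse 2 to those of mice 1 and 3 by construction. Of the 15 genes called as deposited, 13 were called with mouse 2 aligned, and the same number with alignment and block together, the exceptions in both being Ddx41 and Ddx19b. Without mouse 2, 13 of the 15 had enough values for a test and all 13 were called, the other two being Snrpe and Ddx39b.

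**Figure D2:**
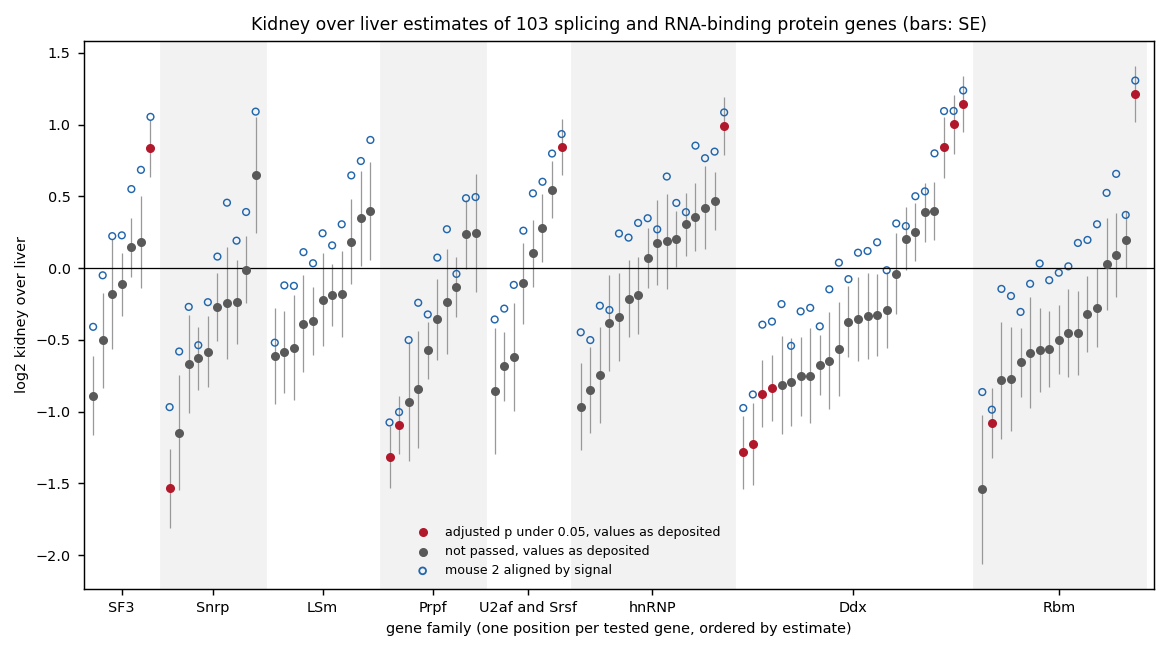
Kidney over liver estimates on the log2 scale (y axis) of the 103 tested genes by family (x axis), as deposited (filled, with SE bars, red where adjusted p was under 0.05) and with mouse 2 aligned (open blue). No gene reaches 2 in either direction, and the open points lie above most filled ones, with a median of 0.12 against -0.33.

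Promoter sequences of the 3 genes with the largest kidney excess and of the 3 with the largest liver excess among those called are shown, to set both directions side by side. They are the 250 bases before the first listed transcription start in RefSeq (GRCm38.p6), read 5′ to 3′ on the strand of the gene, with CpG dinucleotides in capitals. They lie at chr5:66151955-66152204 on the minus strand (Rbm47), chr3:105687572-105687821 on the minus strand (Ddx20), chr11:106789186-106789435 on the minus strand (Ddx5), chr1:133610281-133610530 on the minus strand (Snrpe), chr2:181601069-181601318 on the plus strand (Prpf6) and chr17:35241496-35241745 on the plus strand (Ddx39b).
Rbm47: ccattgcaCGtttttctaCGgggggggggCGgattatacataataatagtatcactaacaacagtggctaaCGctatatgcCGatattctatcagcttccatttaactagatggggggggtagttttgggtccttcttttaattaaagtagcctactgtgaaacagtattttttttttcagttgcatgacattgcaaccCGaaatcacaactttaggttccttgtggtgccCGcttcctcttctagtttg
Ddx20: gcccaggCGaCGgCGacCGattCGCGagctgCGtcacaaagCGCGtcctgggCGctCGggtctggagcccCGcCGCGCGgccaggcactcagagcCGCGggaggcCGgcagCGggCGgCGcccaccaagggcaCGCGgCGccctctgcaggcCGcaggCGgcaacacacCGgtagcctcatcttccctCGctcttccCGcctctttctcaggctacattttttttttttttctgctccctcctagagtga
Ddx5: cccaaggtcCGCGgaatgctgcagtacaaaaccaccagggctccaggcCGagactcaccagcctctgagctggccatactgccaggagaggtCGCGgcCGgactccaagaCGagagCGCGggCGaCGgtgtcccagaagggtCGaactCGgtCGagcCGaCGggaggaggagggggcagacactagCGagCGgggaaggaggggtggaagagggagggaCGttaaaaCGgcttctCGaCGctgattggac
Snrpe: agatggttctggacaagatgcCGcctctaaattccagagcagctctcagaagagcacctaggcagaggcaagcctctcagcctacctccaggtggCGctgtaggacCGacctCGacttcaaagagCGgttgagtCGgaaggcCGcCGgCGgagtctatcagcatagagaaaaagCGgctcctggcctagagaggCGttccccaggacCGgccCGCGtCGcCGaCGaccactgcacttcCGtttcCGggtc
Prpf6: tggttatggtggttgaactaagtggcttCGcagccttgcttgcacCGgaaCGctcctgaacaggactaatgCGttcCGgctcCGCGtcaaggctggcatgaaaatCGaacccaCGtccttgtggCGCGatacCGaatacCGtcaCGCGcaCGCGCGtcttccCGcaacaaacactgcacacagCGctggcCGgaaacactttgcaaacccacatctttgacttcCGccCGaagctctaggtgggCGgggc
Ddx39b: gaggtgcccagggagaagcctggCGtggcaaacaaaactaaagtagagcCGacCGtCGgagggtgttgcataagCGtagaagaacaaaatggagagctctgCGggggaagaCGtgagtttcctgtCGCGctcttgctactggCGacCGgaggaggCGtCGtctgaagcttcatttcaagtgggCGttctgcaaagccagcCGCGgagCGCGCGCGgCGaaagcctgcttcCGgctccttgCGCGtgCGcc
The 3 kidney-side promoters hold 7 (Rbm47), 29 (Ddx20) and 22 (Ddx5) CpGs, and the 3 liver-side ones 19 (Snrpe), 24 (Prpf6) and 25 (Ddx39b). Both sides thus include CpG-rich promoters, and Rbm47 has the fewest of the 6. Its GC content was 41.6%, while the others ran between 58.4% and 68.0%, so the 6 do not share 1 sequence type. The median of named genes on the array was 59.2% GC and 15 CpGs. Rbm47 and Ddx5 each have 3 listed starts, so other starts may be the ones used.

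Promoters were found for 91 of the 107 genes. An observed over expected CpG ratio of at least 0.6 was seen in 81 of them (89.0%), against 61.9% of promoters of named genes on the array and 34.5% of all listed promoters of the same length. CCGGAA, read on both strands, was in 34.1% of the splicing gene promoters, 20.2% of those of array genes and 12.2% of all. CCAAT was in 47.3%, 35.4% and 34.5%, GGGCGG in 56.0%, 56.3% and 32.9%, and TATAAA in 7.7%, 7.3% and 13%. Matches of different motifs may overlap by a few letters, and a match describes letters only. Among the called genes with a promoter, the CpG ratio was met by 7 of 7 higher in kidney and 5 of 7 higher in liver.

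Among snRNP proteins, the largest value lay on the liver side as deposited (Snrpe) and on the kidney side with mouse 2 aligned (Snrpb). Snrpe, the Sm protein E, was -1.82 and -1.54 on kidney arrays of mice 1 and 2, with no value for mouse 3, and -0.74, -1.97 and -1.46 on liver arrays of mice 1 to 3. All 5 averages were below 0. The estimate was -1.53 (SE 0.27, adjusted p 0.00896 by limma and Benjamini-Hochberg), a 2.9-fold liver excess, and -0.97 (adjusted p 0.0141) with mouse 2 aligned. Its probe had too few values for the signal measure, and alignment raised its SD between mice from 0.461 to 0.883. Of the 10 Snrp genes Snrpe was the only one called as deposited, with 0 higher in kidney (limma, background 5.56% in kidney and 8.88% in liver). At an unadjusted p under 0.05, 0 were higher in kidney and 4 in liver, against 800 and 2368 of all 9047 tested genes. The family median was -0.43. Alignment gave 3 kidney and 3 liver calls among the 10 (background 20.5% and 17.3%). Beside Snrpb and Snrpe, these were Snrpb2 (0.46, adjusted p 0.0476) and Snrpf (0.39, 0.041) on the kidney side, and Snrpc (-0.58, 0.0187) and Snrpd1 (-0.54, 0.00778) on the liver side. Snrpb2 had values on 2 kidney and 4 liver arrays, none of mouse 3, and was at -0.24 as deposited. It was 0.90 and -0.79 on kidney arrays and 0.015 and -1.095 on liver arrays of mice 1 and 2. The probes of Snrpb2 and Snrpc had too few values for the signal measure.

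Snrpb, which encodes the Sm proteins B and B', had the highest estimate of its family at 0.65 as deposited (SE 0.41, adjusted p 0.247). It was called higher in kidney with mouse 2 aligned (1.09, adjusted p 0.00134), without mouse 2 (1.35, 0.000789) and with each array centred (1.12, 0.00308). Its 2 probes differed more than those of any other member. The bright probe was at 2.74, 1.67 and 3.03 on kidney arrays of mice 1 to 3 and at 2.91 and 3.63 on liver arrays of mice 1 and 3, with no value for mouse 2. Fitted alone it was 2.88 (SE 0.30, adjusted p 0.000835 over all probes). The other probe, with 66.7% recurring values, was below 0 in all 6 averages and fitted at -0.56 (adjusted p 0.142). The gene average of the liver of mouse 2, -1.04, is thus the second probe alone. Why the probes differ was not tested.

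LSm genes gave no call in either direction among 11 tested (limma, background 14.4% at the adjusted threshold). At an unadjusted p under 0.05 (limma) the family also gave 0. The whole set of 9047 tested genes gave 800 on the kidney side and 2368 on the liver side at that level. Estimates of the family ran between -0.61 for Lsm7 and 0.40 for Lsm3. Both encode subunits of the LSm rings of U6 snRNA and mRNA decay. Lsm3 was 0.58, -0.82 and 1.39 on kidney arrays and 1.04, -0.56 and 0.75 on liver arrays of mice 1 to 3, so only mouse 2 fell below 0. Aligned, it was 0.89 (adjusted p 0.000643), and Lsm4 at 0.65 (0.00281) and Lsm6 at 0.75 (0.00256) were called higher in kidney as well, with 0 of 11 called higher in liver (background 20.5% and 17.3%). These 3 were also called without mouse 2 (adjusted p 0.004, 0.0105 and 0.00436). Lsm7 was -0.43, -1.78 and -0.06 on kidney arrays and 0.12, -1.64 and 0.12 on liver arrays, and was not called under either.

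In the U2 snRNP, Sf3b6 (p14, which contacts the branch point adenosine) was higher in kidney. Its averages were 0.76, 1.00 and 0.79 on kidney arrays and 1.02, 0.81 and 0.64 on liver arrays of mice 1 to 3, all above 0. The estimate was 0.83 (SE 0.20, adjusted p 0.0244), and 1.05 with mouse 2 aligned (adjusted p 0.000707). It rests on 1 of its 2 probes, at 1.47 (adjusted p 0.00267), while the other was at 0.20 (0.457). Sf3a1, a subunit of the SF3A complex, had the lowest estimate of the 7 SF3 genes at -0.89 (adjusted p 0.0668), and was called higher in liver with mouse 2 aligned (-0.41, 0.0355) and without mouse 2 (-0.52, 0.027). It was -0.58, -1.55 and 0.02 on kidney arrays and -0.61, -1.71 and -0.90 on liver arrays. Alignment also gave kidney calls for Sf3b2 (0.55, adjusted p 0.0376) and Sf3b5 (0.68, 0.00964). Of the 7 SF3 genes, 1 was called higher in kidney and 0 higher in liver as deposited (background 5.56% and 8.88%). With alignment these were 3 and 1 (background 20.5% and 17.3%). The Sf3b2 call rests on 1 of its 2 probes, at 0.84 aligned (limma over all probes, adjusted p 0.00655), while the other was at -0.36 (0.182).

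Prpf6, which bridges U5 with the U4 and U6 particle, was higher in liver. Of the 103 genes it alone was called with the block on sample over pool, on values as deposited. The SE under that block was 0.45, as for the other genes with values in both organs of all 3 mice. This call therefore rests on the size of the estimate, not on closer mice. Prpf6 was -0.74, -1.38 and -1.36 on kidney arrays and -1.08, -1.66 and -1.70 on liver arrays of mice 1 to 3. Every average was below 0, and in both organs mouse 1 was nearest to 0. The estimate was -1.32 (SE 0.22, adjusted p 0.00414), a 2.49-fold liver excess, with an adjusted p of 0.0493 under that block, 0.0527 with the mouse as a random block, and a value of -1.08 (0.000381) with mouse 2 aligned.

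Prpf18, a factor of the second catalytic step, was -1.04, -1.01 and -1.42 on kidney arrays and -0.87, -0.96 and -1.28 on liver arrays. Its mouse 2 values lay among those of the other mice. The estimate was -1.10 (SE 0.20, adjusted p 0.00753), -1.003 (0.00032) with mouse 2 aligned and -0.64 (0.108) with each array centred. At the other end, Prpf31, a U4 and U6 protein known from inherited retinal degeneration in humans, was 0.24 (SE 0.41, adjusted p 0.645). Its kidney averages were 1.41, -1.64 and 0.15 and its liver averages 1.45, -0.47 and 0.55, so the sign depended on the mouse. The other 7 Prpf genes were not called as deposited, which left 0 of 10 called higher in kidney and 2 higher in liver (background 5.56% and 8.88%). Alignment added Prpf4b as higher in kidney (0.49, adjusted p 0.00686), giving 1 and 2 (background 20.5% and 17.3%).

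Among SR proteins, Srsf9 was higher in kidney. Its averages, 0.74, 0.70 and 0.91 on kidney arrays and 0.96, 0.79 and 0.96 on liver arrays of mice 1 to 3, lay close together. The estimate was 0.84 (SE 0.19, adjusted p 0.022), a 1.79-fold kidney excess, and 0.93 with mouse 2 aligned (adjusted p 0.000104). Srsf11 had the lowest estimate of the 8 tested U2af and Srsf genes at -0.85 (SE 0.44, adjusted p 0.19), which followed mouse 2: it was -0.15 and -2.06 on kidney arrays of mice 1 and 2, and 0.29, -2.03 and -0.07 on liver arrays. Aligning mouse 2 added calls: Srsf3 (0.60, adjusted p 0.00282) and Srsf10 (0.80, 0.00195) were then higher in kidney too. None of the 8 was called higher in liver (3 and 0 calls, background 20.5% and 17.3%). With alignment the SD between mice fell for Srsf3, from 0.489 to 0.191, but rose for Srsf10, from 0.132 to 0.374. Srsf10 was at 0.55 as deposited (limma, adjusted p 0.0989), and its aligned call does not reflect closer mice.

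The hnRNP family had the highest median of the 8 families, 0.12 as deposited over 16 genes. With mouse 2 aligned it was 0.33, below the 0.39 of the U2af and Srsf genes. Only Hnrnpk, a poly(C)-binding protein, was called as deposited (background 5.56% in kidney and 8.88% in liver). It was 1.18, 0.79 and 0.81 on kidney arrays and 1.31, 0.94 and 0.93 on liver arrays of mice 1 to 3, with mouse 1 the highest in both organs. The estimate was 0.99 (SE 0.20, adjusted p 0.0121), a 1.99-fold kidney excess. After alignment, 5 of the 16 were called higher in kidney and 2 higher in liver (background 20.5% and 17.3%). Beside Hnrnpk, the kidney side held Hnrnpa1 (0.77, adjusted p 0.000607), Hnrnpl (0.81, 0.00896), Hnrnpul2 (0.85, 0.00172) and Hnrnpu (0.35, 0.045). The 2 Hnrnpu probes lay apart with alignment, at 0.83 (limma over all probes, adjusted p 0.00305) and -0.26 (0.184). On the liver side were Hnrnpa0 (-0.50, 0.0137) and Hnrnpll (-0.45, 0.016). Hnrnpll, known as a regulator of Ptprc splicing in lymphocytes, was the lowest of the family as deposited at -0.96 (SE 0.30, adjusted p 0.0716).

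DEAD-box helicases were called in both directions, with 3 kidney-side and 4 liver-side calls among 24 tested (background 5.56% and 8.88%). Ddx20 (Gemin3 of the SMN complex, which loads Sm proteins onto snRNAs) was 1.33, 1.22 and 1.27 on kidney arrays and 1.20, 0.95 and 0.90 on liver arrays of mice 1 to 3. The estimate was 1.15 (SE 0.20, adjusted p 0.00506), a 2.21-fold kidney excess. Ddx5 (p68, a helicase and transcriptional coactivator) was 0.95, 1.09 and 0.42 on kidney arrays and 1.27, 1.10 and 1.20 on liver arrays, and its estimate was 1.00 (SE 0.21, adjusted p 0.0126). The single array of the kidney of mouse 3 gave its lowest value.

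Ddx3x, an X-linked helicase of translation initiation, was 0.78, 1.21 and 0.67 on kidney arrays and 0.70, 1.18 and 0.52 on liver arrays, with mouse 2 the highest in both organs. The estimate was 0.84 (SE 0.21, adjusted p 0.0316). All 3 kidney-side helicases were above 0 in every average. With mouse 2 aligned their estimates were 1.24 (Ddx20), 1.10 (Ddx5) and 1.09 (Ddx3x), with adjusted p of 2.11e-05, 0.000181 and 0.0041. Their SD between mice nevertheless rose with alignment, from 0.121 to 0.155 (Ddx20), 0.257 to 0.327 (Ddx5) and 0.315 to 0.746 (Ddx3x). The smaller adjusted p thus does not reflect closer mice.

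On the liver side, Ddx39b (UAP56, which acts in U2 recruitment and mRNA export) was -0.87 and -1.64 on kidney arrays of mice 1 and 2, with no value for mouse 3, and -1.002, -1.495 and -1.438 on liver arrays. The estimate was -1.28 (SE 0.26, adjusted p 0.0144), a 2.44-fold liver excess, and -0.97 (0.00107) with mouse 2 aligned. Ddx59 was -0.65, -1.57 and -1.33 on kidney arrays and -0.27, -2.11 and -1.41 on liver arrays, with an estimate of -1.23 (SE 0.28, adjusted p 0.022). In both organs mouse 1 was nearest to 0 and mouse 2 farthest.

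Ddx41, a helicase linked to splicing and DNA sensing, and Ddx19b, an mRNA export helicase of the nuclear pore, had weaker calls. Ddx41 was -0.38, -1.25 and -0.93 on kidney arrays and -0.44, -1.36 and -0.89 on liver arrays, with an estimate of -0.87 (SE 0.23, adjusted p 0.0386). Ddx19b was -0.48, -1.36 and -0.26 on kidney arrays and -0.86, -1.19 and -0.86 on liver arrays, with an estimate of -0.83 (SE 0.23, adjusted p 0.0439). Mouse 2 was lowest for both genes in both organs, and with it aligned they were at -0.39 (adjusted p 0.102) and -0.37 (0.0948). Without mouse 2, they were at -0.66 (0.0121) and -0.61 (0.00503). Alignment left 6 kidney and 4 liver calls among the 24 (background 20.5% and 17.3%). It added Ddx6 (0.53, adjusted p 0.00313), Ddx25 (0.80, 0.00812) and Ddx39a (0.50, 0.013) on the kidney side, and Ddx52 (-0.54, 0.0237) and Ddx1 (-0.41, 0.0435) on the liver side.

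Rbm47 had the highest estimate of all 103 tested genes. The protein is a cofactor of the Apobec1 enzyme that edits apolipoprotein B mRNA. It was 1.18, 1.17 and 1.04 on kidney arrays and 1.51, 1.19 and 1.19 on liver arrays of mice 1 to 3, and the single arrays ran between 0.91 and 1.62. The estimate was 1.21 (SE 0.20, adjusted p 0.0038), a 2.32-fold kidney excess, and 1.31 (1.72e-05) with mouse 2 aligned. With the block on sample over pool and its common SE, on values as deposited, the adjusted p was 0.0865.

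Rbm43 was higher in liver, at -1.06, -1.43 and -0.95 on kidney arrays and -0.86, -1.79 and -0.39 on liver arrays, with an estimate of -1.08 (SE 0.24, adjusted p 0.02). Its bright probe alone gave -1.37 (adjusted p 0.00395), and its second probe had 7 values on the 16 arrays and was not tested. Rbm4, a regulator of alternative splicing, had the lowest estimate of all 103, at -1.54 (SE 0.52, adjusted p 0.0993), and was called higher in liver with mouse 2 aligned at a smaller size (-0.86, 0.0334). It was -0.76 and -1.81 on kidney arrays and -0.32 and -3.28 on liver arrays of mice 1 and 2, with no value for mouse 3, and both averages of mouse 2 were the farther from 0. Only 3 liver arrays had a value, at -3.28, -0.64 and 0.009, so the liver of mouse 2 rests on 1 array. The Rbm4 probe had too few values for the signal measure. Of the 17 tested Rbm genes, 1 was called higher in kidney and 1 higher in liver as deposited (background 5.56% and 8.88%), and 15 were not called. With alignment, 4 were called higher in kidney and 2 higher in liver (background 20.5% and 17.3%). The kidney calls added were Rbm5 (0.52, adjusted p 0.013), Rbm22 (0.66, 0.00947) and Rbm39 (0.37, 0.0304).

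**Figure D3:**
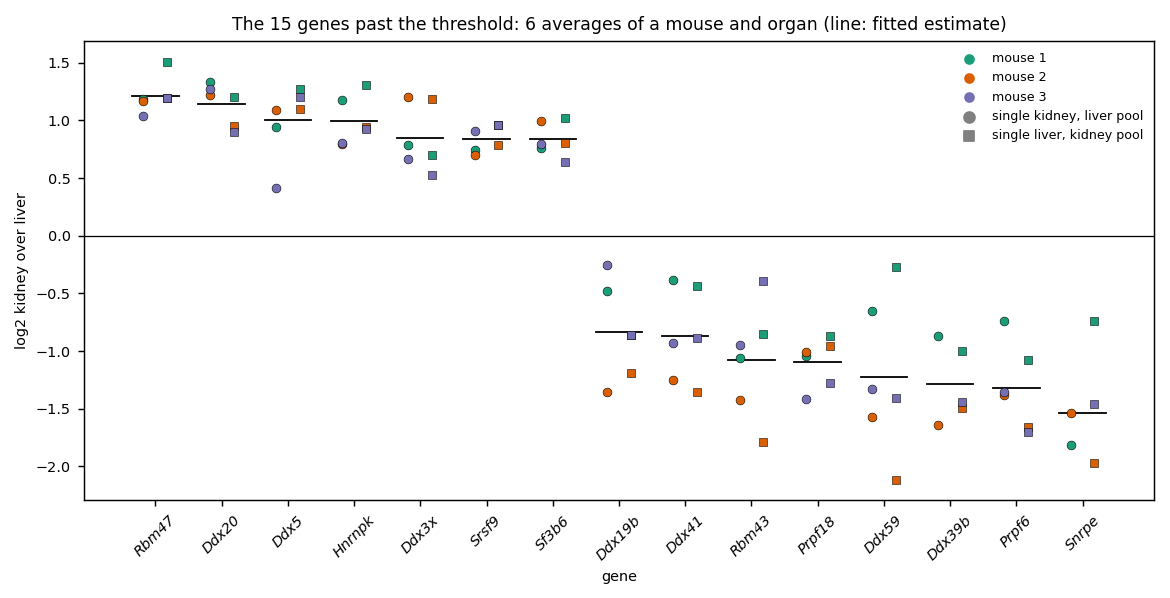
The 6 averages (y axis, log2 kidney over liver) of each of the 15 genes called as deposited (x axis), coloured by mouse, with circles for single kidneys against the liver pool, squares for single livers against the kidney pool, and lines for the fitted estimate. All points of the 7 kidney-side genes lie above 0 and all points of the 8 liver-side genes below 0, and mouse 2 holds the lowest point of the liver-side genes other than Prpf6 and Prpf18.

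Probes of the same gene often differed. Of 26 genes with more than 1 probe, 21 had more than 1 tested probe, and the median distance between the highest and lowest probe was 0.853, or 0.631 with mouse 2 aligned. In 8 genes the distance was at least 1, and after alignment in 6. None had probes called in opposite directions. Ddx1 followed Snrpb, with 1 probe at -1.61 (SE 0.25, adjusted p 0.00406) and the other at 0.07 (0.782), and its average of -0.68 was not called (0.0662). Transcripts of near-identical copies may hybridise to the same cDNA spot, for example those of Ddx39a with Ddx39b or Rbm4 with Rbm4b, so values of these genes may not be specific to 1 copy, which was not tested.

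**Figure D4:**
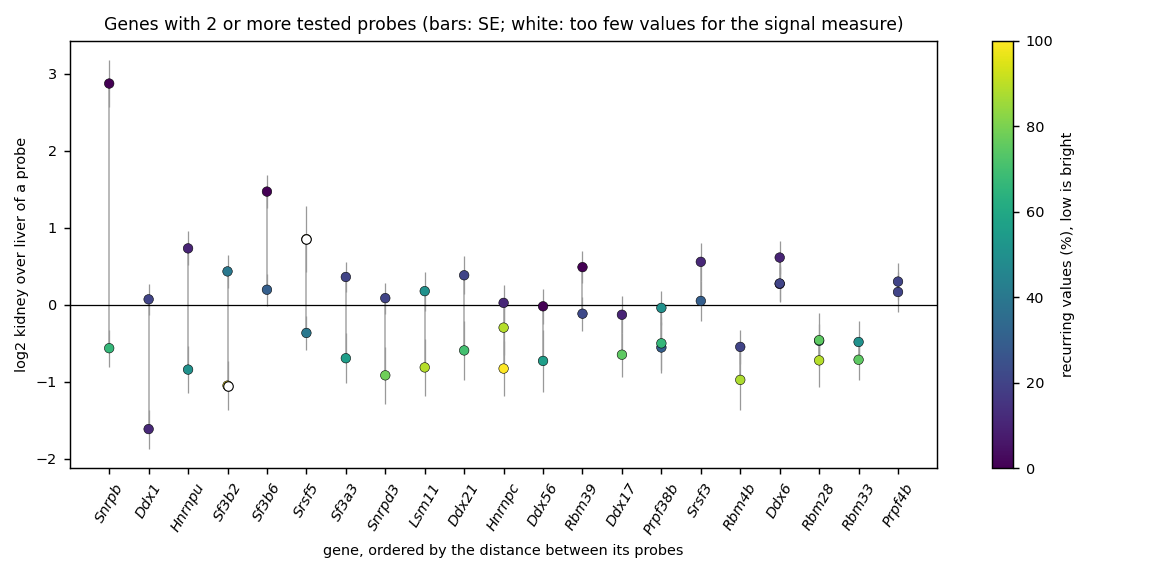
Estimates of single probes (y axis, log2 kidney over liver, SE bars) for the 21 genes with 2 or more tested probes (x axis, ordered by distance), coloured by the percentage of recurring values, where low is bright. Snrpb stands first with probes at 2.88 and -0.56, and Ddx1 next with -1.61 and 0.07.

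Estimates from single kidneys and from single livers were not detectably different, which does not show that they are equal. The difference between the kinds of array (kidney arrays minus liver arrays) passed for 0 of the 103 genes and 0 of all genes (limma, background 0.0%), with 0 and 16 at an unadjusted p under 0.05. This fit leaves out the pairing by mouse. With the mouse as a fixed block, 7 of the 103 genes and 714 of all genes had an unadjusted p under 0.05. The median SD of the splicing genes was 0.251 between repeat hybridisations and 0.657 between mice, or 0.309 with mouse 2 aligned, against 0.255, 0.752 and 0.327 for all genes. The genes called as deposited differed from this. Their SD between mice fell with alignment for Ddx39b, Ddx59, Hnrnpk, Rbm43 and Srsf9 and rose for the others. Among the splicing genes whose call alignment added, it rose for Ddx1, Ddx25, Ddx39a, Hnrnpl, Sf3b2 and Srsf10 and fell for the others. Wherever it rose, a smaller adjusted p with alignment does not reflect closer mice.

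Other genes of splicing and mRNA processing, from 6 lists outside the symbol rule, gave 1 call for kidney and 6 for liver among 111 tested of 164 listed (background 5.56% and 8.88%), a smaller share than over all genes. Of 38 other spliceosome genes, Bcas2 (a subunit of the Prp19 complex) was higher in kidney at 1.66 (SE 0.23, adjusted p 0.00151, and 0.00486 with the block on sample over pool) and Cwc15 (of the same complex) higher in liver at -1.14 (0.00688, and 0.116 with the block). Bcas2 was 2.02, 1.04 and 2.17 on kidney arrays and 1.73, 1.56 and 1.47 on liver arrays of mice 1 to 3, and its estimate lay above that of every gene chosen by symbol. Of 13 snRNP assembly genes, Phax (the adaptor of snRNA export) at -1.05 (adjusted p 0.024, and 0.268 with the block) and Strap at -1.01 (0.0112 and 0.19) were higher in liver. Of 6 splicing kinases, Clk2, which phosphorylates SR proteins, was at -1.24 (adjusted p 0.0107, and 0.0765 with the block).

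Of 11 exon junction and export genes, Thoc1 of the THO complex was at -1.64 (adjusted p 0.00664, and 0.00589 with the block) and Acin1 at -1.17 (0.022 and 0.102), both higher in liver. Thoc1 was -1.61, -2.51 and -1.08 on kidney arrays and -1.47, -2.45 and -0.72 on liver arrays. Block p-values in these lists again follow the size of the estimate and the number of mice with both organs, not the agreement of mice. The 31 other splicing regulators and the 12 genes of 3′ end processing gave 0 calls (limma), with 2 and 4 regulators and 0 and 4 processing genes higher in kidney and in liver at an unadjusted p under 0.05. Of all 9047 tested genes, 800 and 2368 were higher in kidney and in liver at that unadjusted level. With mouse 2 aligned, the 111 genes gave 23 calls for kidney and 12 for liver (background 20.5% and 17.3%), and with arrays centred 23 and 6 (background 19.5% and 12.4%).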

How the data were processed

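RNA was hybridised to 2-colour cDNA arrays. Per the labels' protocols, indirect Cy3 or Cy5 labelling used 20 µg of total RNA, slides were scanned with a GenePix 4000A, and GenePix Pro 3.0 mean intensities minus background were normalised to a median ratio of 1. The deposited values were read as log2 ratios, since 140 of 144 spacings from the most common value matched log2 quotients of integers of at most 10 (tolerance 0.0001), while the natural log matched 0 and log10 matched 16. Dyes and numerator are not given in the sources used here. Spot intensities were not used.

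Of 20419 probes, 11723 had 1 symbol, 806 several and 7890 none in the platform annotation, and 11590 of the first matched RefSeq. Between 15480 and 19432 probes had a value per array. Probes of a gene and arrays of a mouse and organ were averaged. limma 3.58.1 (R 4.3.3) was fitted over all genes that had a value for at least 2 mice in each organ, with the organ difference and the array kind as terms and no block, and Benjamini-Hochberg adjustment (two-sided, threshold 0.05). A missing probe or average was left out, not imputed. Figures were drawn with matplotlib 3.10.9. The number of mice limits the precision. Tested on simulated data, the fit recovered 86 of 100 changes of log2 size 1 and 99 of 100 of size 2, with 11 of 7314 unchanged genes called. The simulated spread was that of mice 1 and 3, drawn independently for each average. It held neither the offset of mouse 2 nor the pairing by mouse, so these rates do not carry over to the deposited values.

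Mouse numbers pair the samples, since the labels give the same animals for both organs. On the scale of sample over pool, deviations of kidney and liver averages of a mouse correlated at -0.591, -0.795 and -0.585 over 14688 probes. Deviations were taken from the mean of all 3 mice as deposited, so the offset of mouse 2 enters all 3 values. The negative sign means that both averages of a mouse moved in the same direction as kidney over liver. The SE and p-values of the fit without a block therefore tend to be too small. Signal was the share of recurring values on the 10 arrays of mice 1 and 3, where 8 or more held a value. Alternatives covered centring, alignment, scaling, quantile normalization, signal and missing-value filters, probe choice, variance model, blocks, single array kinds and left-out replicates. The genes and lists were chosen with earlier results of these data known. Called genes with 1 sign in every average, the highest and lowest gene of each family, and called genes of the other lists were named, together with genes whose call changed with mouse 2. Ddx1, Snrpb's single probes and the helicase and hnRNP copies were named after their values were seen.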

Additional observations from a re-analysis of the deposited data

Results flagged for a closer look

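2 values stood apart from the other 6 kidney arrays of their gene by Dixon's gap. Prpf18 was lowest on the only kidney array of mouse 3, at -1.419, with the nearest array at -1.09 and the other end at -0.933. Sf3b6 was lowest on array 1c of mouse 1, at 0.384, with the nearest at 0.793 and the other end at 1.08. The sign was that of the other arrays in both. Of 45 groups of arrays checked, 2 held such a value, and chance gives about 1 in 20, here 2.25.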

How the results depend on the processing

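The number of genes passing, 15 as deposited (7 higher in kidney, 8 in liver), changed with most settings, and so did the 7 calls of the other lists. The splicing genes passing were 37 (28 and 9) with each array centred, 42 (28 and 14) with mouse 2 aligned by signal, 41 (31 and 10) with arrays scaled to 1 spread and 65 (13 and 52) after quantile normalization, with 29, 35, 31 and 62 calls in the other lists. Of all genes, 32.0%, 37.8%, 33.6% and 72.1% passed there (60.9% as higher in liver after quantile normalization, against 50.5% of the splicing genes). Among bright probes only, 10 and 3 of 21 passed, with 15 calls in the other lists. With the replicate block on sample over pool 1 passed (0 and 1), with the mouse as a fixed replicate block on kidney over liver 78 (21 and 57), and with a random replicate block 0 (0 and 0; 6 and 10 at an unadjusted p under 0.05, limma), with 2, 79 and 2 calls in the other lists. All genes passed at 7.6%, 81.9% and 6.57% under these blocks, above the 0.971%, 75.7% and 0.0% of the splicing genes. With mouse 2 aligned and the replicate block on sample over pool, 28 passed (20 and 8; all genes 24.8%), with 19 in the other lists. Kidney arrays alone gave 0 (0 and 0; 2 and 8 unadjusted) and liver arrays alone 6 (1 and 5), with 1 and 4 in the other lists and 5.0% and 8.94% of all genes. For unadjusted counts under the blocks, single array kinds and left-out replicates, the share of all genes was not taken.

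Leaving out replicates gave 0 to 36 passing genes, 0 to 23 higher in kidney, 0 to 13 higher in liver and 0 to 26 calls in the other lists, while 6.04% to 36.0% of all genes passed. The highest counts were without mouse 2 (36), while without mouse 1 or mouse 3 in both organs 2 and 0 passed (6 and 15 unadjusted for the latter). The median of the splicing genes ran between -0.49 and 0.10, and between -0.38 and 0.30 under the other settings. The array kind gave 0 calls under each setting run, and could not be given under the block on sample over pool or from 1 kind of array.

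Of the values of single named genes, 340 kept their direction and side of the threshold, 132 kept the direction but no longer passed, 41 newly passed and 4 turned sign. Snrpb turned to -0.56 with the probe of most values, since this is its dim probe. Prpf31 ran between -0.35 and 0.89 when replicates were left out, and turned to -0.025 on kidney arrays alone, -0.35 without mouse 1 and -0.12 without the kidney of mouse 1, and the cause was not tested.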

Other observations

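Some pairs of close relatives lay on opposite sides. The pairs were chosen after the values were seen, and the differences were not tested. Ddx39a was at 0.25 as deposited and 0.50 with mouse 2 aligned, while Ddx39b was at -1.28 and -0.97. Hnrnpl was at 0.47 and 0.81, while Hnrnpll was at -0.96 and -0.45. Hnrnpul2 was at 0.36 and 0.85, while Hnrnpul1 was at -0.74 and -0.26. Other pairs lay on the same side, such as Rbm4 at -1.54 and -0.86 with Rbm4b at -0.66 and -0.31. A spot of 1 relative may also bind transcripts of the other. Of the 6 genes on opposite sides, 1 was called as deposited, Ddx39b (adjusted p 0.0144, limma with Benjamini-Hochberg), and Hnrnpul1 was not called with alignment (0.0869).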
